A study of Homo sapiens with 24 samples.

Results

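The nuclear lamina and envelope genes described here are LMNA, LMNB1, LMNB2, LBR, TMPO, EMD, SUN1, SUN2, BANF1 and LEMD3. They were chosen by gene symbol, and all 10 were found, each on 1 row, among the 48162 genes of the count table. RNA-seq was made of PPC1, a prostate cancer cell line, in 4 conditions with 6 libraries each. Parental cells (UT) were not irradiated. PGCC (polyploid giant cancer cells) came from PPC1 cells given 8 Gy on day 2 and were enriched at harvest by retention on a 20 micron strainer; the methods give this step for irradiated plates only. In UT_LCL and PGCC_LCL the same populations were exposed to 5 μM LCL521, a pro-drug inhibitor of the lysosomal enzyme acid ceramidase (ASAH1), for 5 h before harvest. The labels set the harvest on day 5, whereas the methods call the day of drug exposure day 3. All 4 conditions were harvested in parallel in each of 6 independent experiments, so a replicate number marks a shared experiment. All libraries come from 1 cell line, and PGCC differ from parental cells in radiation and in filtration together, so the 2 cannot be told apart.

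The lamina is a meshwork of intermediate filaments under the inner nuclear membrane. LMNA encodes the A-type lamins A and C, and LMNB1 and LMNB2 encode the B-type lamins. The lamin B receptor LBR, a sterol reductase as well as a chromatin tether, and the LEM-domain proteins LAP2 (from TMPO), emerin (EMD) and MAN1 (LEMD3) join the lamina and chromatin to the membrane, partly through the DNA-bridging protein BAF (BANF1). SUN1 and SUN2 span the inner membrane and form, with nesprins, the LINC complex that couples the nucleus to the cytoskeleton. Loss of lamin B1 is a widely used mark of senescence, and the whole envelope is taken apart and rebuilt in mitosis.

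Between 14835246 and 19906601 reads were counted on genes in each library. The second principal component of all libraries, with 16.5% of the variance, set replicates 4 and 5 apart from the other replicates in every condition. These replicates bear on several of the genes below, so values are also given without them. In the keratin check PPC1 had KRT8, KRT18 and KRT19 at 70.2, 233 and 612 CPM (counts scaled to the TMM-adjusted library size, mean of UT), while KLK3, which encodes prostate-specific antigen, was at 0 counts in every library. The keratins, EPCAM and CDH1 made up the list of 5 epithelial markers, which summed to 782 to 1032 CPM in UT. In PGCC against UT 4 of these 5 were tested, and 2 were called higher and 1 lower (75% called, against 47.4% of all genes). HOXB13, a prostate lineage factor, was at 745 CPM in UT. Of the 6 prostate lineage markers listed, 4 had 0 counts in all UT libraries and only 1 was tested. Fibroblast markers summed to 52.4 to 209 CPM and were highest in replicates 4 and 5 of PGCC and PGCC_LCL, with COL1A2 holding most of the sum. Immune markers summed to at most 4.54 CPM and endothelial markers to at most 6.32 CPM. The part of these markers in the results below was not tested.

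LMNA dominated the group in all conditions. Levels of different genes are compared here per kilobase of gene length, as CPM per kb. In parental cells the order was LMNA at 416 ± 72.2 (SD, n = 6), BANF1 at 128 ± 11.5, EMD at 81.8 ± 8.25, LMNB2 at 66.4 ± 9.96, SUN1 at 31.7 ± 3.56, TMPO at 23.7 ± 5.37, LMNB1 at 22.9 ± 9.86, LBR at 17.1 ± 1.84, LEMD3 at 7.48 ± 1.11 and SUN2 at 6.68 ± 1.99 CPM per kb. The ranges of neighbours in this order did not overlap for LMNA and BANF1, BANF1 and EMD, LMNB2 and SUN1, or LBR and LEMD3. All other neighbours overlapped. In PGCC the order was the same except for exchanges of LMNB1 with TMPO and of SUN2 with LEMD3, and in both exchanged pairs the ranges overlapped. LBR lay below TMPO in every PGCC library, with no overlap between their ranges.

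**Figure D1:**
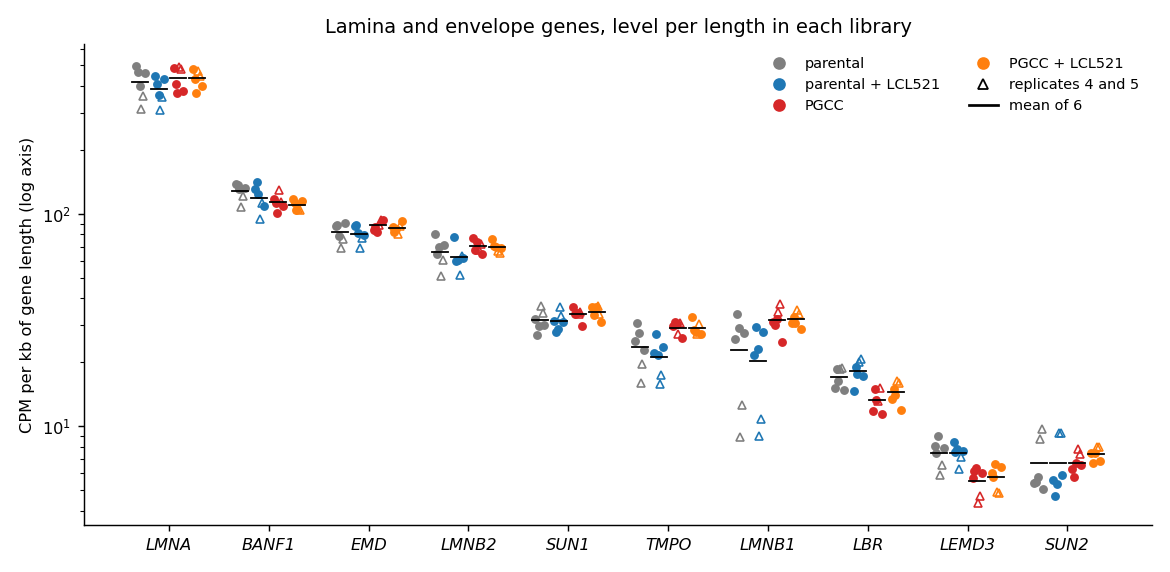
Level of each gene in CPM per kb of gene length (log axis) in every library, grouped by gene and coloured by condition. Open triangles mark replicates 4 and 5 and bars the mean of 6 libraries. LMNA is the highest of the 10 genes in every condition, and in parental cells replicates 4 and 5 hold the lowest LMNB1 values, at 8.86 and 12.6 CPM per kb.

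In PGCC against parental cells, LBR and LEMD3 fell and none of the 10 genes passed as higher in the main fit. Both falls were moderate, to 0.782 and 0.747 of the parental level, and both were seen in every one of the 6 experiments. The lamins themselves did not pass the test. With edgeR's quasi-likelihood test and an adjusted p under 0.05, 2 of 10 genes were called, against 47.4% of all 13812 genes tested (24.3% lower, 23.1% higher). The median log2 fold change of the 10 genes was 0.09 and that of all genes −0.03. Fewer cells with a transcript and less of it per cell cannot be told apart in bulk RNA, and counts are relative to all RNA of a library, so a larger content of RNA per cell would not be seen.

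LBR had CPM values of 56.1, 66.0 and 71.0 in parental cells and 43.2, 49.8 and 57.1 in PGCC (lowest, median and highest of 6). The ranges overlapped by a narrow margin, but LBR was lower in PGCC in all 6 experiments. Its log2 fold change was −0.36 ± 0.10 (SE; adjusted p = 0.00832, edgeR). LEMD3, whose product MAN1 also binds SMAD proteins and restrains TGF-beta signalling, had CPM values of 28.0, 36.6 and 42.8 in parental cells and 20.7, 28.0 and 30.4 in PGCC. It was lower in all 6 experiments as well, with a log2 fold change of −0.42 ± 0.13 (adjusted p = 0.0151, edgeR). For LBR the log2 difference within experiments averaged −0.34 over replicates 1, 2, 3 and 6, and −0.41 over replicates 4 and 5, while LEMD3 had −0.41 and −0.46. The falls of these genes were thus of like size in both sets of experiments.

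LMNB1 behaved differently. Its parental CPM values were 89.6, 117, 101, 30.8, 43.7 and 95.1 in replicates 1 to 6, and its PGCC values were 108, 104, 112, 120, 131 and 87.0. The PGCC libraries were close together, whereas replicates 4 and 5 of the parental cells lay far below the others. The log2 fold change was 0.48 ± 0.26 (adjusted p = 0.144, edgeR), with a 95% interval from −0.08 to 1.03. Averaged over experiments, PGCC exceeded parental cells by 0.03 on the log2 scale in replicates 1, 2, 3 and 6 but by 1.77 in replicates 4 and 5. Without replicates 4 and 5 the log2 fold change was 0.04 (adjusted p = 0.727), with an interval from −0.17 to 0.26.

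TMPO had CPM values of 67.6, 102 and 131 in parental cells and 110, 127 and 131 in PGCC. It was higher in PGCC in all 6 experiments, but its log2 fold change of 0.31 ± 0.13 missed the threshold (adjusted p = 0.0658, edgeR). With the replicate number as a block it passed, at 0.33 (adjusted p = 0.0184), which makes 3 of 10 genes called against 56.2% of all genes. Its paired difference was also larger in replicates 4 and 5 (0.71) than in the other replicates (0.14). Counts per gene do not separate the LAP2 isoforms of TMPO.

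The other genes did not pass in either fit. LMNA had CPM values of 992, 1374 and 1588 in parental cells and 1190, 1416 and 1576 in PGCC, a log2 fold change of 0.08 with a 95% interval from −0.17 to 0.32. LMNB2 had 238, 314 and 375 CPM in parental cells and 304, 326 and 361 in PGCC (0.10, interval −0.11 to 0.30). EMD changed by 0.12, SUN1 by 0.10 and SUN2 by 0.02 on the log2 scale, with adjusted p from 0.233 to 0.936. BANF1 had 125, 152 and 160 CPM in parental cells and 117, 131 and 149 in PGCC, and was lower in 5 of 6 experiments (log2 fold change −0.16 ± 0.08, adjusted p = 0.0996, edgeR).

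Leaving out replicates 4 and 5, whose parental libraries had the lowest LMNA, LMNB1, LMNB2, TMPO, EMD, BANF1 and LEMD3 values of the 6 and the highest SUN1 and SUN2 values, changed which genes passed. LBR (−0.32) and LEMD3 (−0.40) still fell, BANF1 (−0.27, adjusted p = 0.00541) also fell and SUN2 (0.24, adjusted p = 0.0470) rose, 4 of 10 genes against 54.6% of all genes. With the replicate block as well, 7 of 10 passed against 64.3% of all genes. These were TMPO (0.16), SUN1 (0.19) and SUN2 (0.24), which rose, and LMNA (−0.13, adjusted p = 0.0449), LBR, BANF1 and LEMD3, which fell. LMNA therefore changed direction with the choice of experiments, while LBR and LEMD3 fell in every setting tried for this comparison.

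**Figure D2:**
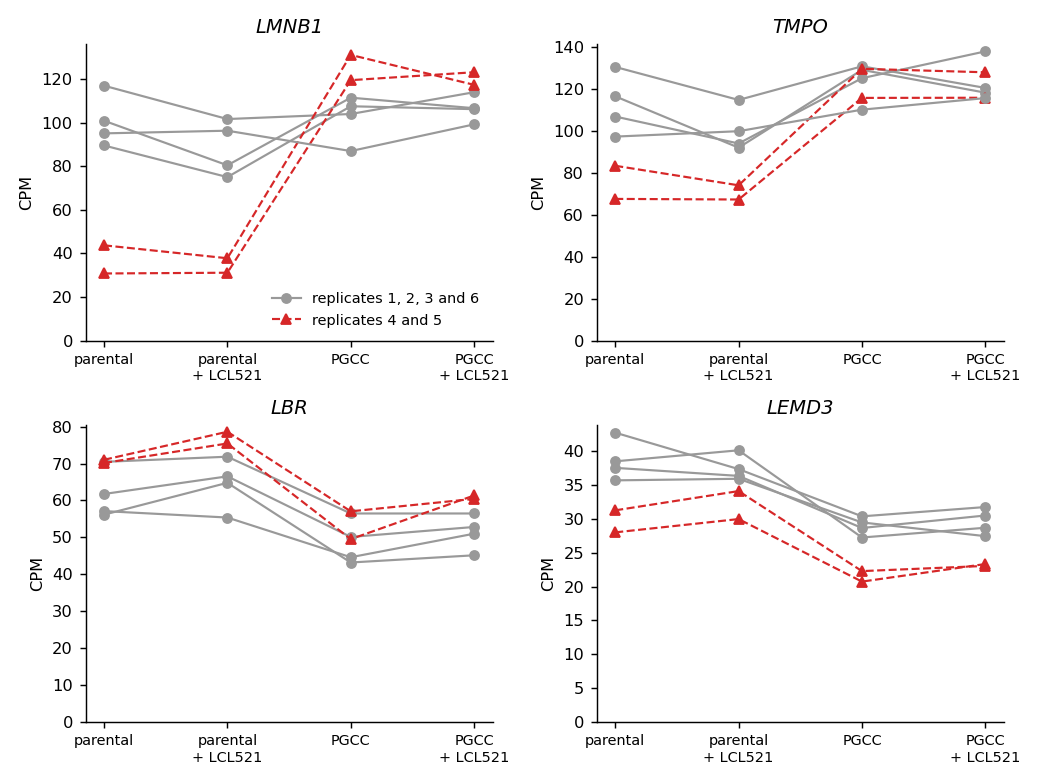
CPM of LMNB1, TMPO, LBR and LEMD3 in the 4 conditions, 1 line for each of the 6 experiments; dashed lines with triangles are replicates 4 and 5. LMNB1 starts at 30.8 and 43.7 CPM in replicates 4 and 5 of the parental cells and ends at 120 and 131 CPM in PGCC, while LBR and LEMD3 fall in all 6 experiments.

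The comparison was made a second time between PGCC_LCL and UT_LCL, which share no library with the first pair although they share its experiments. Here 4 of 10 genes passed, against 48.9% of all 13818 genes tested (25% higher, 23.9% lower). LMNB1 (0.69 ± 0.24, adjusted p = 0.0280) and TMPO (0.47 ± 0.11, adjusted p = 0.00308) rose, and LBR (−0.31 ± 0.10, adjusted p = 0.0235) and LEMD3 (−0.35 ± 0.10, adjusted p = 0.0116) fell (log2 fold change ± SE, edgeR). LMNB1 had CPM values of 31.1, 77.8 and 102 in UT_LCL and 99.3, 110 and 123 in PGCC_LCL, and was higher in all 6 experiments. TMPO had 67.3, 93.1 and 115 CPM in UT_LCL and 116, 119 and 138 in PGCC_LCL. It was the 1 gene of the 10 whose ranges did not overlap, against 28.1% of all genes in this comparison. In the first comparison none of the 10 was without overlap, against 26.8% of all genes.

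The rise of LMNB1 rested in large part on the same experiments. The mean gap between the populations was 0.28 (log2) for replicates 1, 2, 3 and 6, and 1.81 for replicates 4 and 5. Without replicates 4 and 5 the log2 fold change was 0.30 (adjusted p = 0.0278). Leaving out replicate 1, 3, 4 or 5 alone ended the call (adjusted p = 0.0617, 0.0518, 0.0551 and 0.0729). The call of LBR ended without replicate 2 or 3. LBR had CPM values of 55.4, 69.2 and 78.6 in UT_LCL and 45.1, 54.6 and 61.4 in PGCC_LCL. LEMD3 had 30.0, 36.1 and 40.1 CPM in UT_LCL and 23.0, 28.1 and 31.8 in PGCC_LCL. Both were lower in PGCC_LCL in all 6 experiments. LMNB2 did not pass in the main fit but passed with the replicate block (0.19, adjusted p = 0.0322), which makes 5 of 10 genes against 56.3% of all genes. Without replicates 4 and 5, SUN1 (0.24, adjusted p = 0.0221) and SUN2 (0.43, adjusted p = 0.00358) rose too, and 6 of 10 genes passed against 52.5% of all genes.

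**Figure D3:**
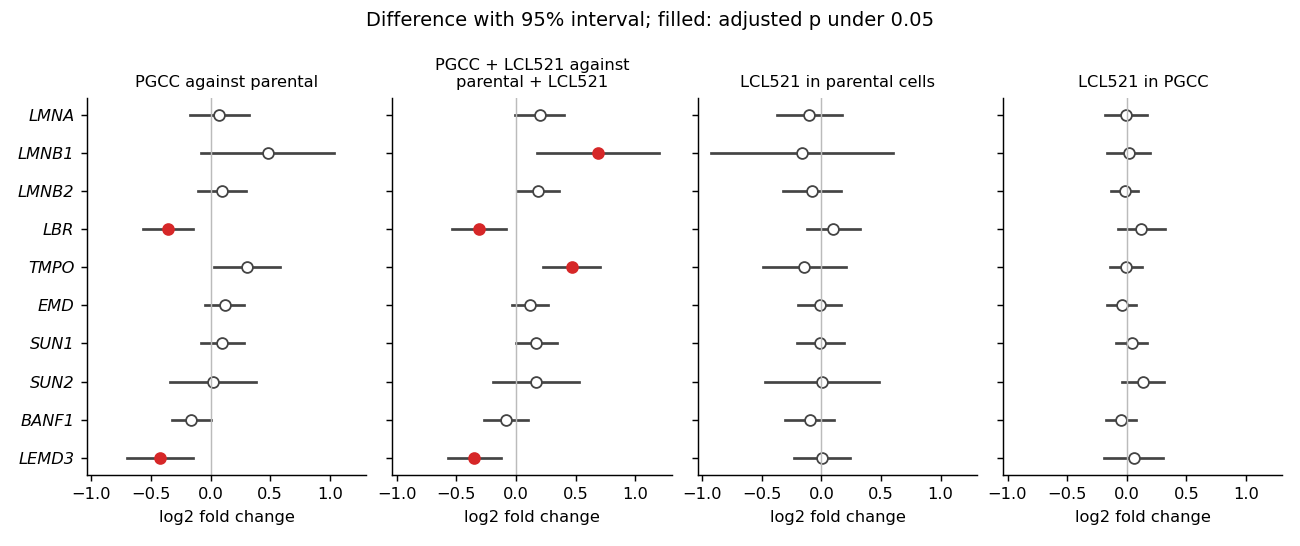
Log2 fold change of each gene with its 95% interval in the 4 comparisons of 2 conditions; filled points have an adjusted p under 0.05 (edgeR). LBR and LEMD3 lie below 0 in both comparisons of PGCC with parental cells, LMNB1 and TMPO pass above 0 with LCL521, and no gene passes in either LCL521 comparison.

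No effect of LCL521 on the 10 genes passed the test in either population. In parental cells 0 of 10 were called, as were 0% of the 13277 genes tested (71 genes at an unadjusted threshold of 0.05). In PGCC 0 of 10 were called, against 0.00707% of 14151 genes (218 with an unadjusted p under 0.05). With the replicate block, 0.866% of genes passed in parental cells and 1.65% in PGCC, none of them among the 10. The effects in parental cells lay between −0.16 (LMNB1) and 0.10 (LBR) on the log2 scale, and those in PGCC between −0.05 (BANF1) and 0.13 (SUN2). For LMNB1 the interval in parental cells was −0.93 to 0.60, and with the replicate block it was −0.26 to −0.05 around the same −0.16 (adjusted p = 0.186, not called). In PGCC the LMNB1 interval was −0.17 to 0.20. LMNA was lower with LCL521 in all 6 experiments in parental cells, and SUN2 was higher in all 6 in PGCC, where LBR was higher in 5 and at 56.5 CPM with and without LCL521 in replicate 2. The adjusted p was 0.999985 for LMNA and 0.999924 for LBR and SUN2 (edgeR). LBR, which takes part in cholesterol synthesis as a sterol C14 reductase, had a log2 fold change of 0.10 (interval −0.12 to 0.32) in parental cells and 0.12 (interval −0.07 to 0.32) in PGCC. With the replicate block its intervals were 0.01 to 0.19 (adjusted p = 0.361, edgeR) and 0.03 to 0.22 (adjusted p = 0.193). The blocked interval was 0.03 to 0.24 for SUN2 in PGCC (adjusted p = 0.205) and −0.18 to −0.01 for LMNA in parental cells (adjusted p = 0.333). In parental cells the blocked intervals of TMPO (−0.24 to −0.04, adjusted p = 0.239, edgeR) and BANF1 (−0.19 to −0.01, adjusted p = 0.325) were below 0 as well. All these blocked intervals lie off 0, but none of these genes was called. With the block, 1648 of 13277 genes in parental cells and 2030 of 14151 in PGCC had an unadjusted p under 0.05. The interaction of drug and population was called for 0 of 10 genes and for 0 of 14555 genes in all (60 with an unadjusted p under 0.05). Its sizes among the 10 ran from −0.02 (EMD) to 0.19 (LMNB1). For LMNB1 the interval of this difference was −0.60 to 0.97 without the block.

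The composition of the lamin transcripts was also read within each library, which needs no scaling between libraries. Of the summed lamin level per length, LMNA held 82.4% ± 1.24 (SD, n = 6) in parental cells and 80.9% ± 1.68 in PGCC. LMNB1 held 4.37% ± 1.48 in parental cells, 4.22% ± 1.49 in UT_LCL, 5.89% ± 0.588 in PGCC and 5.99% ± 0.466 in PGCC_LCL. LMNB2 stayed between means of 13.1% and 13.4% in the 4 conditions. In replicates 4 and 5 of UT and UT_LCL the LMNB1 share lay between 2.39% and 2.90%. In the other parental libraries it lay between 3.95% and 5.94%, and in all PGCC and PGCC_LCL libraries between 5.18% and 6.71%.

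The log2 ratio of LMNB1 to LMNA was 0.53 higher in PGCC than in parental cells, and higher in 6 of 6 experiments. The log2 ratio of LBR to LMNA differed by −0.44 and was lower in 6 of 6. In the two-sided exact permutation test over the 924 divisions of 6 against 6 libraries the p values were 0.0411 and 0.0368, and adjusted over the 20 ratio tests made both were 0.206. With LCL521 the differences were 0.61 and −0.51, both with an adjusted p of 0.173 in the exact test. In the exact test of paired differences both had p = 0.03125 in both comparisons of PGCC with parental cells, and an adjusted p of 0.125. This is the smallest p that 6 pairs allow. The ratio of LBR to LMNA reached the same paired p and adjusted p in UT_LCL against UT, where it was 0.20 higher (log2) and higher in 6 of 6 experiments. None of the 20 ratio tests, which also took in LMNB2 to LMNA, LMNB1 to LMNB2 and SUN1 to SUN2, passed. The paired test could hardly pass, because after adjustment a ratio at the smallest p passes only if most of the 20 reach it. Its outcome therefore does not show that the ratios were unchanged. For LMNB1 to LMNA the mean over replicates 1, 2, 3 and 6 was 0.18, against 1.23 over replicates 4 and 5. For LBR to LMNA it was −0.19 over replicates 1, 2, 3 and 6, against −0.95 over replicates 4 and 5.

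**Figure D4:**
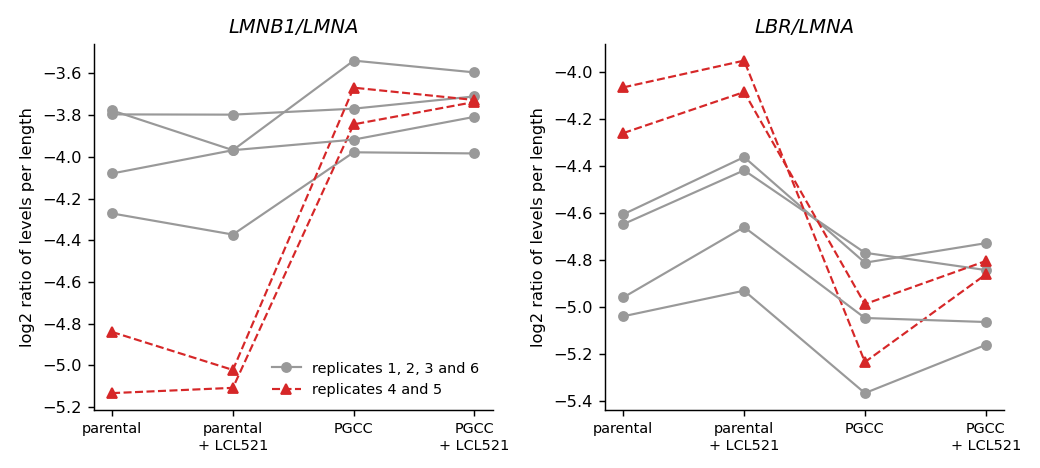
Log2 ratio of levels per length, LMNB1 to LMNA and LBR to LMNA, in each library; 1 line for each experiment, dashed with triangles for replicates 4 and 5. The LMNB1 ratio is higher and the LBR ratio lower in PGCC than in parental cells in all 6 experiments, and the difference is largest in replicates 4 and 5.

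Across the 24 libraries, genes were ranked by how closely their log2 CPM followed that of LMNB1, measured as the root mean square difference after centring each gene. The 5 closest of 14554 genes were MCM3, a subunit of the replicative helicase, BARD1, the partner of BRCA1, GPRIN1, the tubulin gene TUBA4A and RP11-424C20.2, with differences of 0.180 to 0.206. The median over all genes was 0.725, and LMNB1 itself varied by 0.608 around its mean. TMPO ranked at position 163 and was the closest of the other 9 genes, LMNA at 912 and SUN2, the farthest, at 9379. The genes closest to LMNA were APEX2, SEPTIN9, C20orf27, PQLC1 and PFKP, at 0.0960 to 0.102, where LMNA itself varied by 0.200. These rankings describe libraries that share conditions and experiments. In parental cells MCM3 had a mean of 76.5 CPM in replicates 4 and 5 and of 162 CPM in the others, where LMNB1 had 37.3 and 101 CPM.

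Genes that mark proliferation rose in PGCC, 16 of 19, with 1 lower, against 47.4% of all genes called. MKI67 rose by 2.19 and TOP2A by 2.03 on the log2 scale, whereas PCNA, the replication clamp, had a difference of 0.35 (adjusted p = 0.409, edgeR). The summed proliferation level was 873 to 1058 CPM in replicates 4 and 5 of the parental cells, 1108 to 1470 CPM in the other parental libraries and 2908 to 3269 CPM in PGCC. PCNA was at a mean of 40.8 CPM in parental replicates 4 and 5 and at 162 CPM in the others, but MKI67 was higher in replicates 4 and 5 (36.3 against 16.6 CPM). Among genes listed as senescence marks, 8 of 13 tested rose and 1 fell, against 23.1% higher and 24.3% lower of all genes. With the replicate block 9 rose and 1 fell, against 56.2% of all genes called. These are counts of direction only and do not say whether a change goes with or against senescence. CDKN1A, which encodes the p21 inhibitor, rose by 3.74, and CDKN2A, which encodes p16, had a change of −0.91 (adjusted p = 1.99e-05). HMGB2 rose by 1.26 and HMGB1 had a difference of −0.04 (adjusted p = 0.702), while LMNB1 had 0.48 and was not called, as given above. The part of proliferation in the LMNB1 values was not tested.

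The partners of the lamina, in lists written from textbook roles, moved in both directions. Of 17 inner membrane and chromatin partners tested, 5 rose and 4 fell (52.9% called, against 47.4% of all genes). With the replicate block 7 rose and 5 fell, against 56.2% of all genes called. IFFO1 (1.90 ± 0.43) and NRM, which encodes nurim (1.26 ± 0.18), rose most, and TMEM43, which encodes LUMA (−0.72 ± 0.13), and TMEM38B (−0.50 ± 0.19) fell most. The level of IFFO1 was very low, at 0.515 ± 0.324 CPM (SD) and 1 to 16 counts in parental libraries. NRM was also low, at 3.41 ± 0.824 CPM and 38 to 74 counts in parental libraries. The heterochromatin protein genes CBX5 (0.76) and CBX1 (0.53) also rose. CBX5 and its relatives bind LBR. Of 4 LINC complex partners tested, SYNE2, which encodes nesprin-2, rose by 2.43 ± 0.22, from 6.10 ± 1.86 to 32.7 ± 8.74 CPM (SD, n = 6). SYNE1, which encodes nesprin-1, lay between 21.6 and 128 CPM in parental cells and between 35.1 and 131 CPM in PGCC. SYNE3, which encodes nesprin-3, had 0.78 (adjusted p = 0.0673, edgeR) and passed with the replicate block (0.91, adjusted p = 0.00676).

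Of 7 genes listed for prelamin A processing or for lipid attachment to proteins, 42.9% were called, against 47.4% of all genes. NARF rose (0.36 ± 0.12), and ZMPSTE24 (−0.56 ± 0.12) and PGGT1B, a gene of lipid attachment (−0.42 ± 0.10), fell. Without replicates 4 and 5 NARF was not called (0.23, adjusted p = 0.0964, edgeR), but with the replicate block as well it passed (0.24, adjusted p = 0.0258). ZMPSTE24 and PGGT1B fell in both of these settings. ZMPSTE24 encodes the protease that makes the last cut of prelamin A, and its level went from 160 ± 27.2 to 108 ± 14.2 CPM. Of 33 nucleoporin genes, 5 rose and 4 fell (27.3% called, against 47.4% of all genes). NUP98 (0.53) and NUP210 (0.48) rose most and SEH1L (−0.72) and NUP88 (−0.60) fell most. Of these, NUP210 was not called without replicates 4 and 5 (0.33, adjusted p = 0.105, edgeR). With the replicate block as well it was not called either (0.32, adjusted p = 0.0536). With the replicate block 18 nucleoporins passed, 11 of them higher, against 56.2% of all genes. Without replicates 4 and 5 there were 3 higher and 7 lower, against 54.6% of all genes called.

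Of 19 genes for envelope breakdown and resealing, 7 rose and 6 fell (68.4% called, against 47.4% of all genes), and with the replicate block 8 rose and 6 fell (against 56.2%). CDK1 (2.30 ± 0.23) and CCNB2 (2.19 ± 0.27), which encode the mitotic kinase and a cyclin that act on lamins, rose most, with CCNB1, PLK1 and VRK1, the kinase that releases BAF from DNA, also higher (1.33 to 2.04). CHMP2A (−0.93 ± 0.09) and SPAST (−0.81 ± 0.10), which take part in resealing of the envelope by the ESCRT machinery, fell most, and VPS4A (−0.58) and VPS4B (−0.21) fell too. CHMP4B (0.16) and UFD1L (0.61) rose, and PPP1CB (−0.72) and VCP (−0.26) fell. Without replicates 4 and 5, VPS4B (−0.13, adjusted p = 0.199) and CHMP4B (0.17, adjusted p = 0.0514) were not called and IST1, another ESCRT gene, rose (0.21, adjusted p = 0.0231). In the comparison with LCL521, where 48.9% of all genes were called, the calls were 9 of 17 partners, 1 of 4 LINC partners, 3 of 7 processing genes, 14 of 33 nucleoporins and 15 of 19 breakdown and resealing genes.

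**Figure D5:**
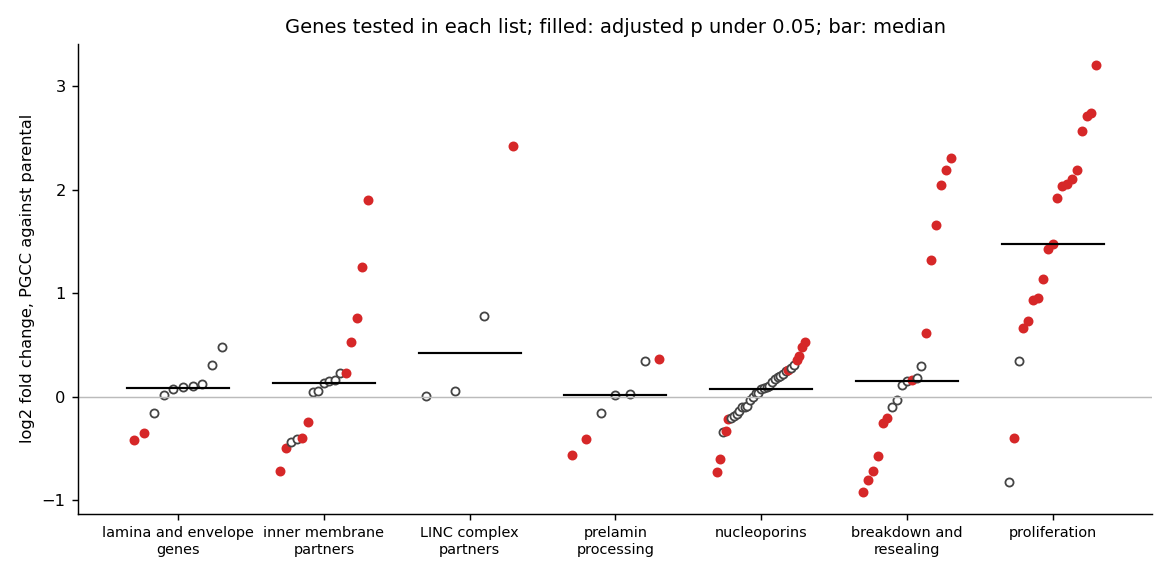
Log2 fold change in PGCC against parental cells of every tested gene in 7 lists, ordered within each list; filled points have an adjusted p under 0.05 (edgeR) and bars are medians. The 10 lamina and envelope genes lie between −0.42 and 0.48, while single partners such as SYNE2 (2.43) and CDK1 (2.30) lie far above them and the median of the proliferation list is 1.47.

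Sequence upstream of the genes that passed in either comparison of PGCC with parental cells is shown because LMNB1 and TMPO moved one way and LBR and LEMD3 the other. Promoters were taken from RefSeq for 9 of the 10 genes, and SUN1 had no entry. Each line gives the 250 bases before the start listed for the gene (the more downstream start where several are listed), 5′ to 3′ on the strand of the gene, and the line ends at the base before that start. Capitals mark 3 kinds of letters, searched on both strands. These are the E2F letters TTTCCCGC, TTTCGCGC, TTTGCCGC or TTTGGCGC, the letters TTTGAA or TTTAAA of the cell cycle homology region (CHR), and the CCAAT box (ATTGG on the other strand).
LMNB1, GRCh38.p14 chr5:126776886-126777135, + strand: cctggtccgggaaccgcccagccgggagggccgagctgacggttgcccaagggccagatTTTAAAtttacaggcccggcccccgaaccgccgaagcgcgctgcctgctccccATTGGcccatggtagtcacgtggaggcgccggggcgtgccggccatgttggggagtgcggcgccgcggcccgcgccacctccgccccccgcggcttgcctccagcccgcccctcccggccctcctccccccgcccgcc
TMPO, GRCh38.p14 chr12:98515340-98515589, + strand: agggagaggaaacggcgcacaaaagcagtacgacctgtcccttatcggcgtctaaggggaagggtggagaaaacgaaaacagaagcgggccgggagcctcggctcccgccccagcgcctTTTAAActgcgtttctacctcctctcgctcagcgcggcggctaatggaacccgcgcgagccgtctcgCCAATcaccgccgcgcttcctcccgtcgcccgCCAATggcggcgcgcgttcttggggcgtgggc
LBR, GRCh38.p14 chr1:225428822-225429071, - strand: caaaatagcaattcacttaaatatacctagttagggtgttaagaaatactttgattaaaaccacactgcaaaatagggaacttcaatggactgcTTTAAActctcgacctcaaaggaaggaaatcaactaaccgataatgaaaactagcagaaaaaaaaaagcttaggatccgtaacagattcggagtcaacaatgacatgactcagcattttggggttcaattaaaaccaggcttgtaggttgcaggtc
LEMD3, GRCh38.p14 chr12:65169333-65169582, + strand: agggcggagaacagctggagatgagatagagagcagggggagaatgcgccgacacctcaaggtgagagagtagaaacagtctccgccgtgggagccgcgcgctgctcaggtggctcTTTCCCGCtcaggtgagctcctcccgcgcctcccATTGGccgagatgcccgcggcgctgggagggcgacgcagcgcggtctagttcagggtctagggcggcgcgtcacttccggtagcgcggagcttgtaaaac
LMNB1, TMPO and LBR held TTTAAA, which lay 191 to 186, 131 to 126 and 156 to 151 bases before the start. LEMD3 held no CHR letters but held TTTCCCGC, 134 to 127 bases before its start. LMNB1 and LEMD3 had 1 CCAAT box each, TMPO had 2 and LBR none. Among all 35116 promoters of this length, 21.9% held CHR letters, 2.79% E2F letters and 32% a CCAAT box. Of the 15 promoters listed for the 9 genes, 9 held CHR letters, 2 E2F letters (LMNA and LEMD3) and 7 a CCAAT box. The same CHR letters were thus found before genes that rose and a gene that fell. A match describes letters only, and these coordinates are of another build than those of the count table.

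In the count table, LMNB1 lies on chromosome 5 from 126112315 to 126172712, TMPO on chromosome 12 from 98909290 to 98944157, LBR on chromosome 1 from 225589204 to 225616627 and LEMD3 on chromosome 12 from 65563351 to 65642107 (hg19). The whole gene was counted, so no value refers to a single exon. Reads on overlapping genes are uncertain. For overlaps on opposite strands this is because it is not stated whether strand was used in counting. DNAL4, TIMM13 and GET4 lie on the same strand as the gene they overlap, so strand could not separate their reads. SUN2, with 297 to 677 counts, overlaps GTPBP1 (723 to 1676 counts) and DNAL4 (91 to 315 counts), so its values are the most uncertain of the 10 in this respect. BANF1 overlaps EIF1AD (298 to 755 counts), LMNB2 overlaps TIMM13 (814 to 2017 counts) and SUN1 overlaps GET4 (17 to 132 counts). The antisense gene TMPO-AS1 had 4 to 37 counts beside 1159 to 2637 for TMPO. The processed pseudogenes of BANF1 had at most 5 counts and that of TMPO at most 2.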

How the data were processed

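PPC1 RNA-seq comprised 24 libraries. The authors deposited raw counts per gene, made from paired-end reads aligned with STAR to hg19 and counted with HTSeq, per the labels and methods; strand setting and annotation release are not given in the sources used here. Counts had not been normalized. Groups came from the labels. R 4.3.3 and edgeR 4.0.16 were used: filterByExpr (minimum count 10, minimum total 15), TMM, and the quasi-likelihood test on the 12 libraries of each comparison (all 24 for the interaction), fitted on all genes, with Benjamini-Hochberg adjustment, a threshold of 0.05 and no fold minimum. CPM used TMM-scaled library sizes; CPM per kb used the deposited gene lengths; log2 CPM had a prior count of 2. Standard errors are the fold change divided by the square root of F. Intervals are at the 95% level.

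Replicate numbers pair the libraries: the series text says all conditions were harvested in parallel, and same-numbered libraries' deviations correlated at 0.171 or more in each comparison. The best correlation was with the same number for 5 of 6 libraries in PGCC against UT. It was so for 3 of 6 in PGCC_LCL against UT_LCL and for all 6 in both LCL521 comparisons. Main fits had no block, following the methods, and blocked values are given where they change a call of the 10 genes or a list's count in PGCC against UT. Libraries of 1 condition differed by more than counting noise (chi-square per degree of freedom 3.52 or more in 60 pairs). Ratios were tested by exact permutation.

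Named genes were all 10 members, the 5 genes most like LMNB1 and LMNA, the 2 largest rises and falls among called genes of each partner list, and MKI67, TOP2A, PCNA, CDKN1A, CDKN2A, HMGB1 and HMGB2; others were named after their values were seen. The members and lists were chosen with earlier results of these data known. Alternatives were DESeq2 1.42.0, limma-voom (limma 3.58.1), RLE factors, library totals, other filters, a joint fit of the 24 libraries, the replicate block and leaving out replicates. The code was tested on simulated data. Values of 1 marker gene are not reported here.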

Additional observations from a re-analysis of the deposited data

How the results depend on the processing

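For PGCC against UT 2 of the 10 genes passed. The count was 4 with library totals, 4 without replicates 4 and 5, and 7 with the replicate block and without replicates 4 and 5 (the last setting was chosen after seeing the data), and it lay between 2 and 3 when each replicate was left out in turn. LMNA, at 0.08 and not called, turned to −0.13 and passed under the block without replicates 4 and 5. With LCL521 in both populations 4 genes passed, between 2 and 4 when each replicate was left out. LBR and LEMD3 kept direction and call in all 16 alternatives of the first comparison. There 13 alternative values gained a call. TMPO gained it in 6 of 16 alternatives, BANF1 in 3, SUN2 in 2, and EMD and SUN1 in 1 each. In the second comparison LMNB1 lost its call in 4 of 16 and LBR in 3 of 16, and TMPO and LEMD3 kept theirs in all 16. LMNB2 and SUN1 gained a call in 4 of 16 each and SUN2 in 2. In the LCL521 comparisons and the interaction no gene passed in any alternative. Over all 950 alternative values of single genes and ratios, 58 changed sign where neither value passed the threshold, and these are not counted as reversals. Among the 10 genes the replicate block changed no call besides those of TMPO and LMNB2 given with the results. The causes were not tested. None of the 10 genes had fewer than 297 counts in a library. Counts per gene cannot show isoforms or protein levels.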

Other observations

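Some lamina partners that the comparison of PGCC with parental cells left uncalled differed between experiments (genes picked after their values were seen). SYNE1 had a mean of 24.0 CPM in parental replicates 4 and 5 and of 92.3 CPM in parental replicates 1, 2, 3 and 6. In PGCC the means were 39.4 and 84.2 CPM. TMEM201, which encodes the inner membrane protein SAMP1, had means of 36.5 and 101 CPM in the same parental libraries and 49.4 and 65.0 CPM in PGCC. SYNE2 was at 8.13 and 5.08 CPM in parental cells and at 41.7 and 28.3 CPM in PGCC, so its rise was seen in both sets of experiments. These means of libraries grouped by experiment carry no test. In the fit without replicates 4 and 5, TMEM201 was lower in PGCC (−0.62, adjusted p = 0.000129, edgeR) and SYNE1 was not called (−0.11, adjusted p = 0.735).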
